A study of Homo sapiens with 6 samples.

Results

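The genes described here encode the transforming growth factor beta (TGF-beta) ligands, their receptors, the proteins that hold the ligands latent, and TGFBI, a matrix protein named for its induction by TGF-beta. They were taken from the gene table of A673 cells, an Ewing sarcoma line, by gene symbol. All 10 symbols, TGFB1, TGFB2, TGFB3, TGFBR1, TGFBR2, TGFBR3, LTBP1, LTBP2, LTBP3 and TGFBI, were among the 25268 listed. Of these, 9 passed the filter for testing, which required at least 1 FPKM (sequenced fragments scaled to transcript length and library size) in at least 2 of the 6 libraries. LTBP2 did not pass it. LTBP1 passed only through its esiFLI1 libraries, so its difference was in part set by the filter.

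TGF-beta ligands are made as dimers bound to their own propeptide, which keeps them inactive. In most cells the propeptide is tied to a latent TGF-beta binding protein (LTBP), which stores the complex in the extracellular matrix until integrins, proteases or other factors free the ligand. The free ligand brings together the type II receptor TGFBR2 and the type I receptor TGFBR1, which phosphorylates SMAD2 and SMAD3. These join SMAD4 and enter the nucleus, where they raise many matrix and cytoskeletal genes. Ewing sarcoma is driven by EWS-FLI1, a fusion transcription factor that is known to repress TGFBR2, and USP9X is known as a deubiquitinase of SMAD4.

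Cells were collected 72 h after transfection with esiRNA, enzymatically prepared pools of short interfering RNA. The esiFLI1 group received a pool against FLI1, which the labels describe as EWS-FLI1 knockdown, the esiUSP9X group a pool against USP9X, and the esiGFP group a pool against GFP, labelled as a non-targeting control. Each group had 2 libraries, and all 3 groups carried the fusion gene and had no other stated change. FLI1 RNA, to which the fusion contributes its FLI1 portion, was at 12.7 and 14.1 FPKM in esiFLI1 libraries, 25.0 and 31.9 in esiUSP9X libraries and 24.1 and 36.4 in esiGFP libraries. USP9X RNA was at 26.2 and 37.7 FPKM in esiFLI1, 5.31 and 7.10 in esiUSP9X and 20.6 and 26.5 in esiGFP, so each pool's target was lowest in its own libraries. The knockdown changes were -1.09 for FLI1 (limma adjusted p = 0.13; 4.4e-04 with the replicate number as a block in the fit) and -1.77 for USP9X (limma adjusted p = 1; 4.5e-04 with the block), on the log2(FPKM + 1) scale. Library totals lay between 781732 and 907926 FPKM, and the read depth behind a value is unknown. Of 6 Ewing sarcoma markers, 5 reached 1 FPKM in at least 2 libraries. The sixth, CD99, was listed at 0 in all 6. EEF1A1, a translation factor that every cell uses, had 2928 FPKM or more in the esiFLI1 and esiUSP9X libraries and a listed 0 in each esiGFP library, so a listed 0 in this table can be a failed estimate. None of the 10 TGF-beta genes was listed at 0. The 6 Ewing sarcoma markers summed to between 297 and 317 FPKM in esiFLI1, 696 and 755 in esiUSP9X and 713 and 739 in esiGFP. Epithelial and endothelial markers (3 genes each) summed to at most 0.592 FPKM in any library, with the epithelial marker CDH1 listed at 0 in all 6. Among the 3 immune markers, CD3E was listed at 0 and PTPRC reached at most 0.0201 FPKM, while CD68 made up the rest. The immune sum was 4.51 to 7.59 FPKM in esiFLI1, 1.85 to 1.97 in esiUSP9X and 2.73 to 3.78 in esiGFP. The part of these marker shifts in the results was not tested.

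Several genes of this family were higher after the FLI1 knockdown, and none passed the test after the USP9X knockdown. In esiFLI1 against esiGFP, TGFB2, TGFBR2, TGFBR3, LTBP1 and TGFBI were called higher by limma (Benjamini-Hochberg adjusted p under 0.05 over 12169 genes), which is 5 of the 10 genes, and 0 were called lower. Over all tested genes 2.81% were called in this comparison in either direction, 2.58% higher and 0.23% lower. With the replicate number as a block in the fit, TGFBR1 and LTBP3 were called higher as well, 7 genes in all, where 42.1% of all genes were called 20.6% higher and 21.6% lower. TGFB1 and TGFB3 were called in neither fit. The median log2 change over the 9 tested genes was 1.25, which is the value of LTBP1, against -0.03 over all tested genes. LTBP1, which passed the filter only through its esiFLI1 libraries, is included in the counts of this paragraph. In 6 of the 9 both esiFLI1 libraries lay above both esiGFP libraries, which 19.8% of all tested genes also showed, and 0 lay wholly below, against 17.3%. These are bulk RNA values, so more cells of a given state and more RNA per cell cannot be told apart.

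**Figure D1:**
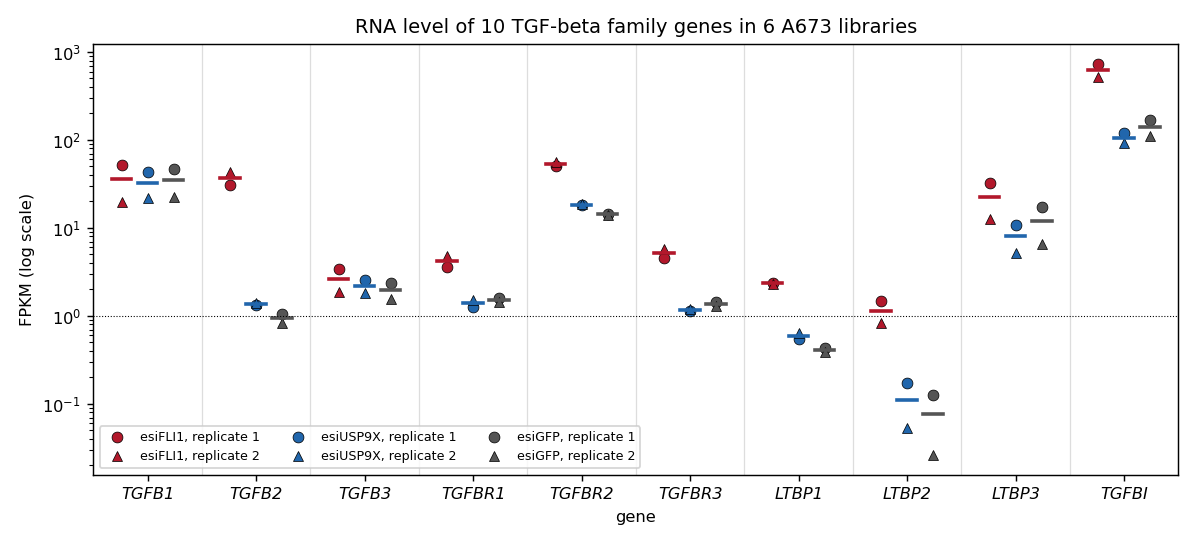
FPKM of each gene on a log axis in the 6 libraries, with circles for replicate 1, triangles for replicate 2 and bars for the mean of the 2 libraries of a group. TGFB2 stood at 30.9 and 42.8 FPKM in esiFLI1 and at no more than 1.39 FPKM in the other 4 libraries, while the TGFB1 values of the groups overlap, and the dotted line marks 1 FPKM.

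Among the ligands, TGFB2 changed and the other two did not pass the test. TGFB2, an isoform best known for its roles in heart, eye and skeletal development, was at 30.9 and 42.8 FPKM in esiFLI1 libraries, 1.32 and 1.39 in esiUSP9X libraries and 1.06 and 0.828 in esiGFP libraries. Both esiFLI1 libraries stood far above the other 4. The mean FPKM was 36.8 ± 8.39 in esiFLI1 and 0.943 ± 0.164 in esiGFP (SD, n = 2 each), a ratio of 39.0. On the log2(FPKM + 1) scale, which understates changes of low genes, TGFB2 rose by 4.27 (SE 0.22, limma adjusted p = 0.0058). The rise was 3.95 within replicate 1 and 4.58 within replicate 2.

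TGFB1, the most widely expressed isoform, was at 51.6 and 19.8 FPKM in esiFLI1, 43.2 and 22.0 in esiUSP9X and 47.1 and 22.2 in esiGFP. Replicate 2 was the lower one in each group, and the groups overlapped. Its log2 change in esiFLI1 was -0.02 (SE 0.62, limma adjusted p = 0.99). In the fit with the replicate block, the 95% interval of this change ran from -0.29 to 0.26. TGFB3, which shares the same receptors, was at 3.39 and 1.87 FPKM in esiFLI1, 2.55 and 1.81 in esiUSP9X and 2.34 and 1.57 in esiGFP, again with overlapping groups. Its log2 change in esiFLI1 was 0.28 (SE 0.29, limma adjusted p = 0.76; 0.11 with the block). Among protein-coding genes of GENCODE v29, TGFB1 overlaps HNRNPUL1, CCDC97, TMEM91 and AC011462.1 on the other strand, and TGFB3 overlaps IFT43 on the other strand. On their own strand, TGFB2 overlaps TGFB2-OT1, TGFBR3 overlaps RN7SL653P and LTBP1 overlaps RNA5SP92, none of them protein-coding. HNRNPUL1 was at 68.5 to 110 FPKM over the 6 libraries and IFT43 at 19.1 to 28.1 FPKM. These overlaps are of whole gene spans, and the counting strand is not given in the sources used here. Whether reads of the overlapping genes entered the TGFB1, TGFB2, TGFB3, TGFBR3 and LTBP1 values cannot be told.

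The ligands' levels are set beside each other in FPKM, which is scaled by transcript length but not by GC content or for the overlapping genes named above, and the part of these in the shares was not tested. TGFB2 made up 35.95% and 66.4% of the summed FPKM of the 3 ligands in the esiFLI1 libraries. Its share was 2.80% and 5.52% in esiUSP9X and 2.10% and 3.36% in esiGFP. TGFB1 held 60.1% and 30.7% of the sum in esiFLI1, against 93.3% and 90.3% in esiGFP. The esiFLI1 libraries differed in these shares, since replicate 2 had less TGFB1 and more TGFB2 than replicate 1. The sum of the 3 was 85.9 and 64.4 FPKM in esiFLI1, 47.0 and 25.2 in esiUSP9X and 50.5 and 24.6 in esiGFP, with the esiFLI1 libraries above all others.

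**Figure D2:**
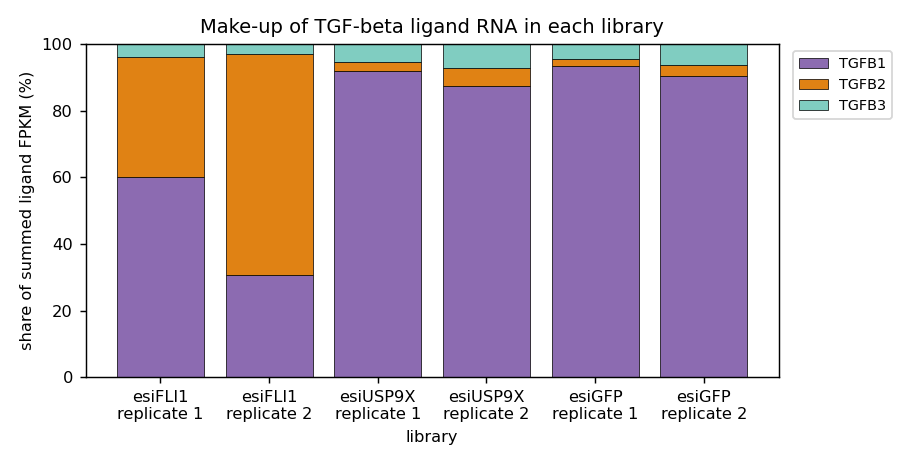
Share of the summed FPKM of TGFB1, TGFB2 and TGFB3 (percent, stacked to 100) in each library. TGFB2 takes 35.95% and 66.4% in the esiFLI1 libraries and no more than 5.52% in any other library.

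All 3 receptor genes were higher in both esiFLI1 libraries than in any other library. TGFBR2, the ligand-binding type II receptor, was at 51.1 and 56.4 FPKM in esiFLI1, 18.2 and 18.5 in esiUSP9X and 14.3 and 14.2 in esiGFP. The libraries of each group lay close together, and TGFBR2 rose in esiFLI1 by 1.84 on the log2 scale (SE 0.17, limma adjusted p = 0.013). TGFBR3, betaglycan, a co-receptor that presents ligand and is needed most for TGFB2 binding, was at 4.60 and 5.72 FPKM in esiFLI1, 1.13 and 1.18 in esiUSP9X and 1.44 and 1.30 in esiGFP. It rose by 1.37 in esiFLI1 (SE 0.17, limma adjusted p = 0.026). TGFBR1, the type I receptor kinase, was at 3.61 and 4.85 FPKM in esiFLI1, 1.27 and 1.51 in esiUSP9X and 1.58 and 1.45 in esiGFP. Its log2 change in esiFLI1 was 1.05 (SE 0.19), which limma called with the replicate block (adjusted p = 8.9e-04) and not without it (adjusted p = 0.063). TGFBR2 was the most abundant of the 3 in each library. It held 86.2% and 84.2% of their summed FPKM in esiFLI1, 88.4% and 87.3% in esiUSP9X and 82.6% and 83.8% in esiGFP. Their sum was 59.3 and 67.0 FPKM in esiFLI1, 20.6 and 21.2 in esiUSP9X and 17.3 and 17.0 in esiGFP.

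Promoter windows from RefSeq are shown for the ligand that rose, for the 3 receptors, and for TGFB1, which was not called. Each is 300 bases long, from 250 bases before the annotated start, and all 10 genes had at least 1 of the 22 windows found. Capitals mark matches to 4 motifs on either strand. The motifs are GGAAGGAA (2 tandem GGAA units), CCGGAA (a core of ETS factor sites), CAGAC (a Smad-binding motif) and TGANTCA (the AP-1 site). CCGGAA can overlap GGAAGGAA. As GGAAGGAA has only 2 units, a match to it is not read as an EWS-FLI1 repeat site.
TGFB2 (GRCh38.p14, chr1:218345086-218345385, plus strand): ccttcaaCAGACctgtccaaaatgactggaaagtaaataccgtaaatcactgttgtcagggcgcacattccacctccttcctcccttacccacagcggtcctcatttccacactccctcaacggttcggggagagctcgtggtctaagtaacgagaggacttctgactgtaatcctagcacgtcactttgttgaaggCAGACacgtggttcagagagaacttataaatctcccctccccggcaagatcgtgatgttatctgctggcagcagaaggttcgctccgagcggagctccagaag
TGFBR2 (GRCh38.p14, chr3:30606351-30606650, plus strand): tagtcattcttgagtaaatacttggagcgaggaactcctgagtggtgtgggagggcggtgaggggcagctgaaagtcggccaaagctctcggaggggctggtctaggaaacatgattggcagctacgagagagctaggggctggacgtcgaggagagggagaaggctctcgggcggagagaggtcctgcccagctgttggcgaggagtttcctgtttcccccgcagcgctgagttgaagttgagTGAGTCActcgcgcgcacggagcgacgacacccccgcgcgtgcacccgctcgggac
TGFBR1 (GRCh38.p14, chr9:99103802-99104101, plus strand): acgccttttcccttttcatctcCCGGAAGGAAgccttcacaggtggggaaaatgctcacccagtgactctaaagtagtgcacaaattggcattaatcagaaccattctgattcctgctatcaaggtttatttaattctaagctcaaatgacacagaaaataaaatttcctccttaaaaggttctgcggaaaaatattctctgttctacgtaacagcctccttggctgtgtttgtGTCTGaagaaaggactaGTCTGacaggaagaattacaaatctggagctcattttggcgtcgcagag
TGFBR3 (GRCh38.p14, chr1:91886102-91886401, minus strand): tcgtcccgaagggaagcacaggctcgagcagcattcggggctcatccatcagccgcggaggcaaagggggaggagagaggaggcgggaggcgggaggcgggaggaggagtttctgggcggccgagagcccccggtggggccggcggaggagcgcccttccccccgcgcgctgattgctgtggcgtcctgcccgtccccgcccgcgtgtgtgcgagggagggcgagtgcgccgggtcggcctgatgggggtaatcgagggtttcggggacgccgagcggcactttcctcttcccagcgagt
TGFB1 (GRCh38.p14, chr19:41353873-41354172, minus strand): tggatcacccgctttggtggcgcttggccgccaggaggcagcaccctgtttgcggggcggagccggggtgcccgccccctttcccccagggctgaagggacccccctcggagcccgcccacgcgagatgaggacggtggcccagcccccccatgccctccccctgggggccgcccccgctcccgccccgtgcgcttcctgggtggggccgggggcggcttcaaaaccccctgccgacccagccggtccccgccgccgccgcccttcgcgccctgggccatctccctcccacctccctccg
TGFB2 has a single window, with 2 matches to CAGAC, 243 and 53 bases before the start, and none to the other motifs. TGFBR2 has 2 windows, and the one shown holds TGANTCA 6 bases before the start, while the other has no match to any of the 4 motifs. TGFBR1 has 8 windows, and the one shown is the only one of the 22 with GGAAGGAA, 226 bases before its start and overlapping CCGGAA. The other TGFBR1 windows hold neither GGAAGGAA nor CCGGAA. The window shown also holds 2 matches to CAGAC on the opposite strand. TGFBR3, TGFBI and TGFB1 have a single window each, with no match to any of the 4 motifs, so these matches do not separate genes that rose from TGFB1. Over all 35116 RefSeq windows of this length, GGAAGGAA occurred in 3.67%, CCGGAA in 17.2%, CAGAC in 45.3% and TGANTCA in 7.71%. These matches are descriptions of letters in the windows, and binding was not measured.

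The latency proteins had their highest means in esiFLI1, and LTBP1 passed the test without a block. LTBP1, which ties latent ligand to fibrillin microfibrils, was at 2.36 and 2.32 FPKM in esiFLI1, 0.545 and 0.645 in esiUSP9X and 0.432 and 0.385 in esiGFP. It rose in esiFLI1 by 1.25 (SE 0.13, limma adjusted p = 0.017), with the reservation on its filter given above. LTBP3, which binds all 3 latent ligands, was at 32.6 and 12.5 FPKM in esiFLI1, 10.9 and 5.13 in esiUSP9X and 17.4 and 6.64 in esiGFP. Its esiFLI1 and esiGFP libraries overlapped, and limma did not call this difference without a block (log2 change 0.84, SE 0.66, adjusted p = 0.66). Within replicate numbers the change was 0.86 and 0.82, and limma called LTBP3 with the block (SE 0.12, adjusted p = 0.0013). LTBP2, which binds fibrillin but not the latent ligands, was at 1.46 and 0.837 FPKM in esiFLI1, 0.171 and 0.0530 in esiUSP9X and 0.127 and 0.0261 in esiGFP. With no filter on low values, the log2 change of LTBP2 was 0.98 (limma adjusted p = 0.060; 0.011 with the block) over 19453 genes. LTBP3 held most of the summed FPKM of LTBP1, LTBP2 and LTBP3 in each library. Its share was 89.5% and 79.8% in esiFLI1, 93.8% and 88.0% in esiUSP9X and 96.9% and 94.2% in esiGFP. LTBP4, a further LTBP that is not among the 10 genes, is left out of these shares. It was at 22.3 and 8.59 FPKM in esiFLI1, 11.9 and 5.82 in esiUSP9X and 19.8 and 5.46 in esiGFP. LTBP4 was thus above LTBP3 in both esiUSP9X libraries and in esiGFP replicate 1.

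TGFBI encodes a secreted protein that binds collagens and integrins, and was by far the most abundant RNA of the family. It was at 739 and 517 FPKM in esiFLI1, 119 and 93.6 in esiUSP9X and 168 and 111 in esiGFP. Both esiFLI1 libraries lay above the other 4, and TGFBI rose by 2.17 (SE 0.30, limma adjusted p = 0.035).

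Without a block, the calls of TGFBR2, TGFBR3, LTBP1 and TGFBI in esiFLI1 ended when any 1 of the 6 libraries was left out (limma adjusted p from 0.061 to 0.22), while the log2 changes stayed between 1.22 and 2.47. The call of TGFB2 ended only without esiGFP replicate 1 (limma adjusted p = 0.086) or esiGFP replicate 2 (0.094). With the block, all 7 genes stayed called in each of these 6 fits.

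**Figure D3:**
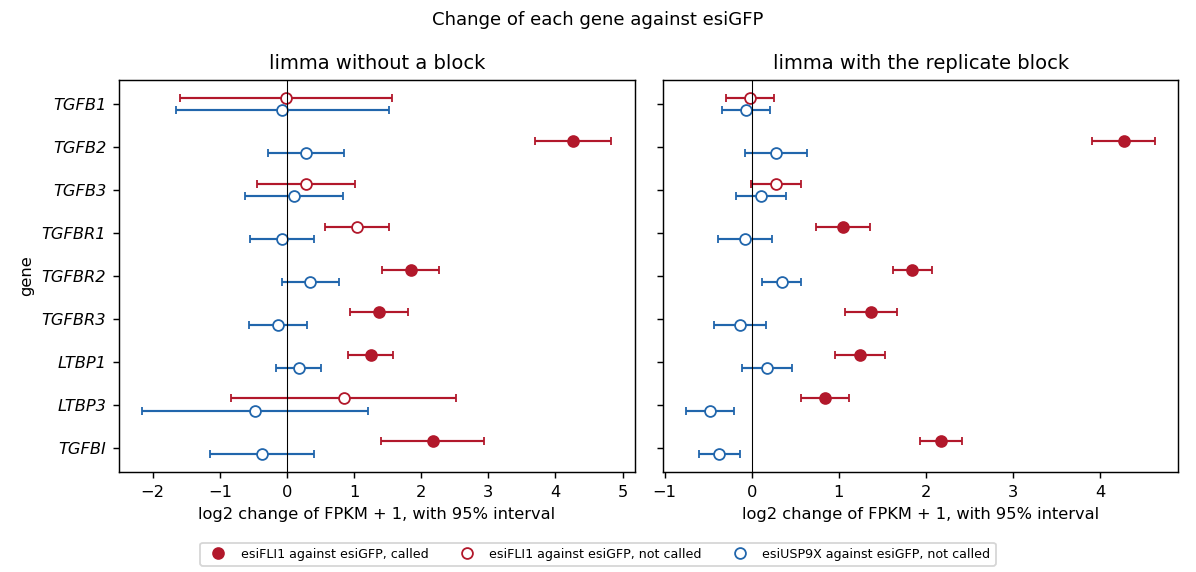
Log2 change of FPKM + 1 against esiGFP for the 9 tested genes, with 95% intervals from limma without a block (left) and with the replicate number as a block (right). Filled points passed an adjusted p of 0.05. The esiFLI1 change of TGFB2 is 4.27 in both panels, the intervals of TGFB1 and LTBP3 are far narrower with the block, and no esiUSP9X point is filled.

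In esiUSP9X against esiGFP, limma called 0 of the 10 genes in either fit. At an unadjusted p under 0.05 it found 0 without a block and 3 with it, namely LTBP3, TGFBI and TGFBR2, where 0.937% and 10.9% of all tested genes did so. At the adjusted threshold 0.0247% of all tested genes were called without a block, all of them higher, and 0.238% with it (0.074% higher and 0.164% lower). TGFBR2 was higher in both esiUSP9X libraries than in both esiGFP libraries, with a log2 change of 0.34 and a blocked 95% interval of 0.12 to 0.57 (limma adjusted p = 0.28 with the block). LTBP3 had a log2 change of -0.48 (blocked interval -0.75 to -0.20, limma adjusted p = 0.24) and TGFBI one of -0.37 (-0.61 to -0.13, limma adjusted p = 0.28), each lower within both replicate numbers. TGFB2 had a log2 change of 0.28, with a blocked interval of -0.08 to 0.64 (limma adjusted p = 0.59). TGFB2, LTBP1 and TGFBR2 did not overlap between the groups on the high side, and TGFBR3 on the low side. These are 3 and 1 of the 9 tested genes, where 8.75% and 7.82% of all tested genes did the same. The changes of TGFBR1 (-0.08), TGFBR3 (-0.14), TGFB1 (-0.07), TGFB3 (0.11) and LTBP1 (0.18) had blocked intervals that included 0.

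The comparison of esiUSP9X with esiFLI1 tests whether the effects of the knockdowns differ. TGFB2 was lower in esiUSP9X, with a log2 change of -3.99 (limma adjusted p = 0.0057), as were TGFBI (-2.54, 0.023), TGFBR3 (-1.51, 0.020), TGFBR2 (-1.497, 0.020) and LTBP1 (-1.07, 0.025). These 5 were called without a block, and 0 were called higher, where 3.08% of all tested genes were called, 2.66% lower and 0.419% higher. LTBP1 passed the filter only through its esiFLI1 libraries, so its place among these 5 was in part set by the filter. With the block LTBP3 (-1.32, limma adjusted p = 1.8e-04) and TGFBR1 (-1.12, limma adjusted p = 6.1e-04) joined them. In that fit 41.1% of all tested genes were called, 20.9% lower and 20.2% higher. Both esiUSP9X libraries lay below both esiFLI1 libraries for all 7, LTBP3 included, as 21.1% of all tested genes did, and 0 lay wholly above, against 18.4%. Leaving out any library ended the calls made without a block except that of TGFB2, which ended without esiUSP9X replicate 1 or esiUSP9X replicate 2 (highest limma adjusted p 0.11). The 3 comparisons share libraries and are not independent of each other.

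The order of the levels within the family, by mean FPKM, was not the same in each group. In esiFLI1, TGFBI (628) was followed by TGFBR2 (53.8), TGFB2 (36.8), TGFB1 (35.7) and LTBP3 (22.5). TGFB2 and TGFB1 overlapped there, as did TGFB1 and LTBP3. Below them stood TGFBR3 (5.16), TGFBR1 (4.23), TGFB3 (2.63), LTBP1 (2.34) and LTBP2 (1.15), with overlaps of TGFBR3 with TGFBR1 and of TGFB3 with LTBP1. In esiUSP9X the order was TGFBI (106), TGFB1 (32.6), TGFBR2 (18.4), LTBP3 (8.01), TGFB3 (2.18), TGFBR1 (1.39), TGFB2 (1.36), TGFBR3 (1.16), LTBP1 (0.595) and LTBP2 (0.112). Of these neighbours, only TGFBR1 and TGFB2 overlapped. In esiGFP it was TGFBI (139), TGFB1 (34.7), TGFBR2 (14.3), LTBP3 (12.04), TGFB3 (1.95), TGFBR1 (1.52), TGFBR3 (1.37), TGFB2 (0.943), LTBP1 (0.409) and LTBP2 (0.0763). TGFBR2 overlapped LTBP3 there, and TGFB3 overlapped TGFBR1.

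On the log2(FPKM + 1) scale, replicates of TGFB1 and LTBP3 differed more than those of the other genes. This scale compresses low values such as those of LTBP2, whose esiGFP libraries were at 0.127 and 0.0261 FPKM. LTBP3 and TGFB1 were lower in replicate 2 of every group, by log2 differences of -1.32 and -1.34 in esiFLI1, -0.96 and -0.94 in esiUSP9X and -1.27 and -1.05 in esiGFP. Their longest GENCODE v29 transcripts have the highest GC content of the 10, at 67.8% for LTBP3 and 63.5% for TGFB1. TGFB2 (38.9% GC) and TGFBR1 (39.0% GC) had mean replicate differences of 0.11 and 0.14. Across the 9 tested genes the mean replicate difference correlated with GC content at r = -0.92, and across 11470 tested genes with a known transcript at r = -0.80. These correlations run across genes of the same 6 libraries, and genes are not independent replicates. With a correction of each library for GC content, limma called LTBP3 in esiFLI1 without a block (log2 change 1.04, adjusted p = 0.010, with 5.9e-06 to 0.92 over all alternatives) and TGFBR1 as well (0.95, adjusted p = 0.021, with 1.7e-08 to 0.34 over all alternatives).

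**Figure D4:**
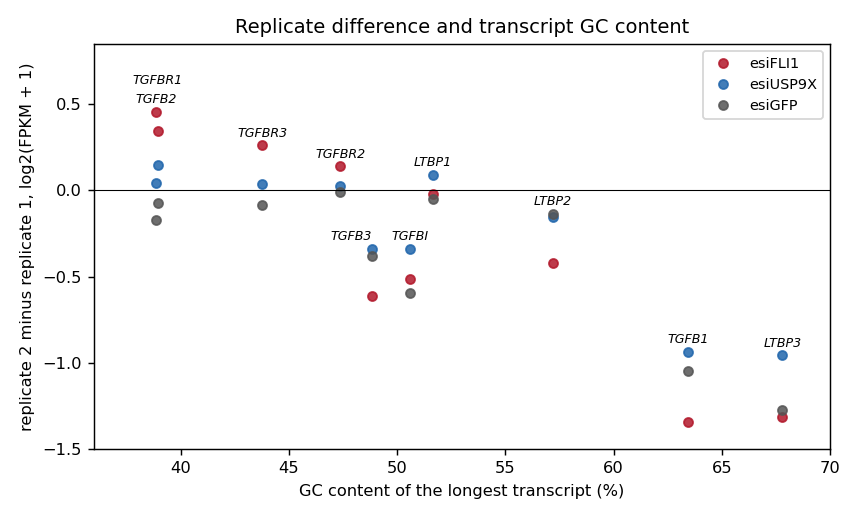
Difference of replicate 2 minus replicate 1 on the log2(FPKM + 1) scale in each group, against the GC content (percent) of the longest transcript of each gene. TGFB1 and LTBP3, at 63.5% and 67.8% GC, lie lowest in all 3 groups, between -0.94 and -1.34.

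For the 5 genes called in esiFLI1, the tested genes with the closest pattern over the 6 libraries were found by Euclidean distance of centred log2(FPKM + 1) values. TGFB2 was nearest to ANKRD1 (distance 0.46), MGP (0.50) and LOX (0.51). TGFBR2 was nearest to RGS5 (0.17), ARSJ (0.18) and F2RL1 (0.24), and TGFBR3 to PLK2 (0.14), BBOX1 (0.14) and MEGF10 (0.15). LTBP1 was nearest to SH3BP5 (0.12), RIN2 (0.17) and NFKBIZ (0.18), and TGFBI to CXCL14 (0.21), AIF1L (0.24) and OLFML2A (0.25). MGP, F2RL1, PLK2, BBOX1, MEGF10 and CXCL14 were under 1 FPKM in every esiUSP9X and esiGFP library. They passed the filter only through their esiFLI1 libraries. BBOX1 was at 1.51 and 2.05 FPKM in esiFLI1 and at most 0.00998 FPKM elsewhere. The added 1 FPKM compresses such low values, so a small distance does not mean a like fold change. ANKRD1 followed TGFB2 in level too, at 22.7 and 31.0 FPKM in esiFLI1, 1.28 and 1.46 in esiUSP9X and 0.892 and 0.595 in esiGFP.

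Other genes of the pathway were taken from 5 lists with 78 genes, of which 68 were tested. In esiFLI1, limma called 12 of them higher and 0 lower without a block, and 36 higher and 5 lower with the block. Of all tested genes, 2.58% were called higher and 0.23% lower without a block, and 20.6% higher and 21.6% lower with it. None was called in esiUSP9X in either fit (0 genes, with 2 at an unadjusted p under 0.05 without a block and 15 with it, where 0.937% and 10.9% of all tested genes did so). The median log2 change of the 68 was 0.45 in esiFLI1 and -0.04 in esiUSP9X, against -0.03 and -0.01 over all tested genes.

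Of 20 Smad signalling genes, all tested, limma called 0 in esiFLI1 without a block (2 at an unadjusted p under 0.05, where 15.8% of all tested genes did so), and 3 higher and 3 lower with it, where 42.1% of all tested genes were called. STRAP, which binds the type I receptor with SMAD7, was at 175 and 152 FPKM in esiFLI1 and 211 and 190 in esiGFP (log2 change -0.29), and fell only in the blocked fit (limma adjusted p = 0.035). TGIF1, a SMAD corepressor, had a log2 change of 0.16 (limma adjusted p = 0.76). SMAD3, a receptor-activated SMAD, was at 18.7 and 16.3 FPKM in esiFLI1, 8.65 and 7.77 in esiUSP9X and 9.06 and 8.71 in esiGFP. It rose in the blocked fit in esiFLI1 (0.90, limma adjusted p = 4.4e-04; 0.086 without a block). SMAD4, the shared partner SMAD, was at 12.1 and 13.9 FPKM in esiUSP9X and 13.0 and 15.3 in esiGFP. Its log2 change there was -0.11 (limma adjusted p = 1 without a block and 0.74 with it). SMAD7, the inhibitory SMAD, was at 8.01 and 5.81 FPKM in esiFLI1 and 5.99 and 5.42 in esiGFP, with a log2 change of 0.23 that was called in neither fit (limma adjusted p = 0.78; 0.16 with the block).

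Of 15 tested ligand storage and activation genes, limma called 4 higher in esiFLI1 without a block and 12 with it, and 0 lower in either fit, against 2.58% and 20.6% of all tested genes called higher. ITGB8, an integrin subunit called with the block, passed the filter only through its esiFLI1 libraries (1.02 and 1.73 FPKM, against at most 0.300 in the others), so its difference was in part set by the filter. FBN1, the fibrillin that anchors LTBPs, was at 69.2 and 75.8 FPKM in esiFLI1 and 7.74 and 6.95 in esiGFP, and rose by 3.14 (limma adjusted p = 0.0058). The plasminogen activator PLAU rose by 3.11 (limma adjusted p = 0.017), the matrix protease MMP2 by 3.05 (0.026) and the plasminogen activator PLAT by 1.99 (0.021). The integrin subunits ITGB3 and ITGB6, the surface anchors LRRC32 and NRROS, and THBS1 did not pass the filter.

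Of 9 tested co-receptors and related receptors, limma called only NRP1 in esiFLI1 without a block (2.04 higher, adjusted p = 0.017). There 2.58% of all tested genes were called higher. With the block it called 4 higher and 0 lower. In that fit 42.1% of all tested genes were called, 20.6% higher and 21.6% lower. NRP1, a co-receptor for semaphorins and VEGF that can also bind TGF-beta, was at 31.1 and 25.4 FPKM in esiFLI1, 10.6 and 8.26 in esiUSP9X and 6.15 and 6.03 in esiGFP. BMPR1A, a BMP type I receptor, had a log2 change of -0.07 in esiFLI1. Of 5 tested extracellular ligand binders, limma called 0 without a block. At an unadjusted p under 0.05 it found 3 there, where 15.8% of all tested genes did so. With the block it called 4 higher, where 20.6% of all tested genes were called higher. ASPN, a matrix proteoglycan and 1 of the 4, passed the filter only through its esiFLI1 libraries (1.13 and 2.11 FPKM, against at most 0.204 in the others). Also among the 4 were biglycan, BGN (1.64, limma adjusted p = 1.4e-04 with the block, 0.30 without), and vasorin, VASN (1.22, 5.5e-04 with the block, 0.51 without).

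Of 19 tested transcripts known to rise with TGF-beta, limma called 7 higher and 0 lower in esiFLI1 without a block, and 13 higher and 2 lower with it. The shares of all tested genes were 2.58% higher and 0.23% lower without a block, and 20.6% higher and 21.6% lower with it. Matrix genes were among those called higher, with LOX, the collagen crosslinking enzyme, at 4.42 (limma adjusted p = 0.0077), POSTN, periostin, at 5.46 (0.022), and TNC, tenascin C, at 1.99 (0.0096). The 2 called lower with the block were CDKN1A (-0.44, limma adjusted p = 0.031) and BHLHE40 (-0.45, 0.024). A list of 3 fibroblast markers, DCN, LUM and PDGFRB, summed to 60.1 and 37.4 FPKM in esiFLI1, 20.4 and 14.6 in esiUSP9X and 20.3 and 14.6 in esiGFP, and DCN is also among the ligand binders. Most of each sum was PDGFRB, at 54.9 and 31.5 FPKM in esiFLI1, 18.4 and 12.6 in esiUSP9X and 18.4 and 11.6 in esiGFP. LUM reached at most 1.19 FPKM. The part of such a shift in the results for the TGF-beta genes was not tested.

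**Figure D5:**
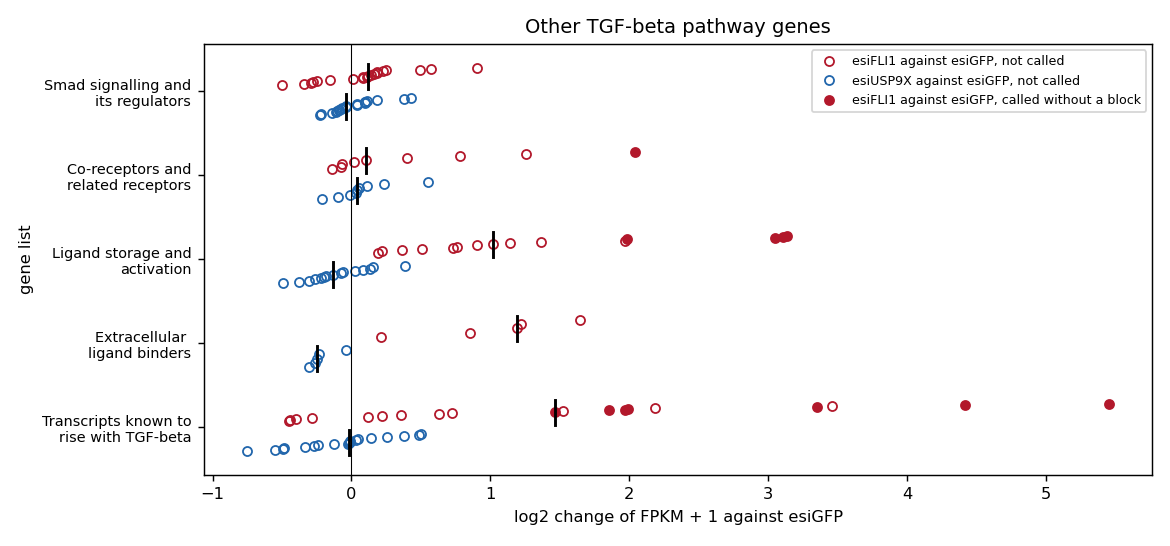
Log2 change of FPKM + 1 against esiGFP for the 68 tested genes of the 5 pathway lists, in esiFLI1 (upper row of each list) and esiUSP9X (lower row), with a bar at the median of each row. Filled points were called by limma without a block, 12 in esiFLI1 and 0 in esiUSP9X, and most of them lie in the lists of ligand storage and of transcripts known to rise with TGF-beta.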

How the data were processed

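RNA of 6 A673 libraries was sequenced after ribosomal RNA depletion of 2 µg total RNA, with 75-nt single-end reads and a stranded kit, per the labels' protocols. The authors deposited FPKM per gene symbol. TopHat, Cufflinks and Cuffdiff, with hg19 and GRCh37 as builds, are listed in the submitters' processing notes. The sources used here give neither annotation nor versions. The final line of the table, which named no gene, was left out (1 line). Low values showed no steps of single reads (the fullest bin held 3.82%), so depth is unknown. Log2(FPKM + 1) of 12169 genes was fitted with limma 3.58.1 in R 4.3.3 (trend, two-sided, Benjamini-Hochberg over all of them), with 3 group means and all libraries. The procedure was tested on simulated data. Nothing states that replicates were separate cultures, so a p-value reflects the spread among these libraries, which may be technical. Deviations of same-numbered libraries correlated between groups (0.64 for esiFLI1 and esiUSP9X, 0.65 for esiFLI1 and esiGFP, 0.59 for esiUSP9X and esiGFP), so the replicate numbers were taken as pairs, from the data and not the design. Blocked values add that number to the fit. The genes, lists and motifs were chosen with earlier results of these data known. From the pathway lists, named genes follow a rule by adjusted p, or by FPKM where fewer than 2 were called. A gene that this rule selects is not reported here. SMAD3, SMAD4, SMAD7, LTBP4, ITGB8, ASPN, CDKN1A, BHLHE40 and EEF1A1 were chosen after values were seen. So were the genes that did not pass the filter and the values of ANKRD1, BBOX1, LUM and PDGFRB. Promoters are RefSeq windows of GRCh38.p14. The deposited table holds no coordinates, and none of hg19 are given. GC content came from the longest GENCODE v29 transcript (94.3% of tested genes). The GC corrections were added after seeing the data.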

Additional observations from a re-analysis of the deposited data

How the results depend on the processing

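Counts of called genes depended on the fit. Of all tested genes, 2.81% were called in esiFLI1 against esiGFP without a block and 42.1% with it. In esiUSP9X against esiFLI1 these shares were 3.08% and 41.1%. The shares under the other settings are not given here. The counts below therefore show how calls depended on the fit, and are no result about these genes beyond all tested genes. A filter of 5 FPKM left LTBP1, LTBP2, TGFBR1, TGFBR3 and TGFB3 untested, so the lower counts with it also reflect genes that were not tested. Of the 10 TGF-beta genes, limma called 5 in esiFLI1 against esiGFP without a block and 7 with the replicate block. The count was 2 with a filter of 5 FPKM, 3 under quantile normalization, 1 with only the 2 groups compared, and 0 to 7 over the fits that left out a library (0 to 1 without a block, 7 in each with it). In esiUSP9X against esiFLI1 the count was 5, and 7 with the block, 3 with the 5 FPKM filter, 3 under quantile normalization, 1 with only the 2 groups, and again 0 to 7 over the fits that left out a library. In esiUSP9X against esiGFP it was 0 throughout. For the other pathway genes in esiFLI1 against esiGFP the count of 12 became 41 with the block, 33 with a GC correction, 46 with both, 2 with only the 2 groups, 0 to 4 without a library, and 33 to 41 with the block and without a library (38 without esiGFP replicate 1, 37 without esiGFP replicate 2, 35 and 33 without either esiFLI1 library). In esiUSP9X against esiFLI1 the 12 became 45, 35, 48 and 5 under the same settings, 0 to 5 without a library, and 31 to 45 with the block and without a library (35 and 31 without either esiFLI1 library, 32 and 36 without either esiUSP9X library). In esiUSP9X against esiGFP the 0 became 4 with the block without esiGFP replicate 1 or esiGFP replicate 2. For the single TGF-beta genes, 483 of 609 alternative values kept direction and call, 65 lost the call, 36 gained it and 25 changed sign, all of the last in TGFB1, TGFB3, LTBP3 or TGFBR1 changes that were not called. TGFB1 in esiFLI1 against esiGFP turned to 0.067 under quantile normalization, 0.13 with a common sum without MIR6723 and 0.10 with either GC correction, and ran from -0.69 to 0.66 without a library (0.16 and 0.030 with the block). In esiUSP9X against esiGFP it turned to 0.026 with either GC correction. TGFB3 in esiUSP9X against esiFLI1 turned to 0.022 under quantile normalization. Without a library, TGFB1 ran from -0.59 to 0.46 in esiUSP9X against esiGFP (0.062 with the block) and from -0.72 to 0.62 in esiUSP9X against esiFLI1 (0.12 and 0.078 with the block), TGFB3 from -0.028 to 0.59 in esiFLI1 against esiGFP, from -0.083 to 0.30 in esiUSP9X against esiGFP and from -0.48 to 0.14 in esiUSP9X against esiFLI1, LTBP3 from -1.11 to 0.16 and TGFBR1, with the block, from -0.24 to 0.084 in esiUSP9X against esiGFP. The cause of these changes was not tested. The common sum without MIR6723, a microRNA symbol that held 33.2% to 50.9% of a library's FPKM, moved the median of all genes in esiFLI1 to 0.10, against -0.03, and the count of TGF-beta genes called there was 5 as well. A group with 1 library left is assumed to vary like the others.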
